A study of Mus musculus with 12 samples.

Results

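The nuclear-encoded subunits of the respiratory chain and of ATP synthase were taken by gene name, with no measured value in the rule. Earlier results of these data were known when the rule was chosen. The rule took the Nduf subunits a, b, c, s and v, Sdha to Sdhd, the Uqcr subunits, the subunits Cox4 to Cox8 and every Atp5 gene. It found 82 of the 35976 gene names in the data. By complex these were 35 genes of complex I, 4 of complex II, 8 of complex III, 18 of complex IV and 17 of complex V. Ndufa4 was counted in complex IV, where its protein is found. Atp5s and Atp5sl match by name only: RefSeq calls them Dmac2l and Dmac2, and they are not structural subunits. RefSeq names Atp5f1 as Atp5pb, a subunit of the ATP synthase stalk. Subunits with other names, such as Cyc1 and Ndufab1, and the subunits encoded in mitochondrial DNA lie outside the rule.

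The respiratory chain carries electrons from nutrients to oxygen in the inner mitochondrial membrane. Complex I takes electrons from NADH and complex II takes them from succinate, both pass them to ubiquinone, complex III hands them to cytochrome c and complex IV reduces oxygen. Complexes I, III and IV pump protons, and complex V, the ATP synthase, uses the proton gradient to make ATP. Nuclear genes encode most subunits, including all of complex II, which is also an enzyme of the tricarboxylic acid cycle. The transcription factors NRF1, GABP (of the ETS family) and YY1 are known regulators of many of these genes. Some subunits of complex IV and the c subunit of ATP synthase have isoforms from separate genes, several of them known from heart, muscle or testis.

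The libraries came from A2lox.cre, a mouse embryonic stem cell line built to take a doxycycline-inducible gene. All 6 groups, the controls included, carried the inducible RUNX1-EVI1 construct, a leukaemia-associated fusion of the blood transcription factor RUNX1 with the zinc finger protein EVI1. The labels describe expansion of single colonies after neomycin selection and do not say how many clones the libraries came from. FLK1+ cells from embryoid bodies were cultured towards blood and then kept without doxycycline (NoDox) or with 0.5 µg/ml doxycycline for 18 hours (PlusDox). They were sorted into Hemogenic endothelial 1 (HE1), Hemogenic endothelial 2 (HE2) and Hematopoietic progenitor (HP) cells, where hemogenic endothelium is the vessel lining from which blood cells arise. Each group had 2 biological replicates. No group received doxycycline without the construct, so an effect of the fusion and one of doxycycline itself, which is known to inhibit mitochondrial ribosomes, cannot be told apart here.

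Values are FPKM, that is, read pairs relative to transcript length and to the number mapped. They summed to 468326 to 579055 per library, 11461 to 12174 genes reached 1 FPKM, and relative sequencing depth ran from 0.645 to 1.58 times that of the middle library. In 5 libraries Lars2, Mir6236 and LOC101056014 held 8.81% to 16.9% of the summed FPKM, against 0.35% to 0.59% in the other 7. The 5, called the high class here, were the second replicates of NoDox HP, PlusDox HE1, PlusDox HE2 and PlusDox HP, and the first of NoDox HE1. HE2 therefore has a high-class library only with doxycycline. The 10 endothelial markers summed to 1532 to 2109 FPKM in HE1, 846 to 1657 in HE2 and 140 to 347 in HP, and 7 erythroid markers to 113 to 192, 1454 to 2164 and 6942 to 12746. Mecom, the mouse gene of the EVI1 part, read 0.19 and 0.21 FPKM in NoDox HP and 5.18 and 5.51 in PlusDox HP (adjusted p = 0.0058, limma). Its adjusted p was 0.0923 in HE2 and 0.986 in HE1, and Runx1 passed in none of the 3 populations (adjusted p 0.72 to 0.995, limma). Hprt was called higher with doxycycline in all 3 populations, for example from 1.45 and 2.11 to 45.1 and 19.4 FPKM in HE1 (adjusted p 0.00127 to 0.00305, limma). The species of the fusion cDNA is not given in the sources used here, so its reads may map to these mouse genes only in part.

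The subunit genes were among the most abundant transcripts of these cells. Of the 82, 78 reached 1 FPKM in at least 2 libraries and were tested, and 71 had a mean of at least 20 FPKM. The median of their mean levels was 86.1 FPKM, against 9.90 FPKM for all 13316 tested genes. The 4 genes that did not reach the filter are complex IV isoforms: Cox6a2, Cox7b2 and Cox8c were listed at 0 in all 12 libraries, and Cox8b read 0 to 0.46 FPKM. The median SD of the members over the 12 libraries was 0.285 on the log2 scale, against 0.32 for the 3878 tested genes with a mean of at least 20 FPKM. Ndufa1 varied least (SD 0.13), and Cox6b2 and Cox7a1 varied most (both 0.68).

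Per transcript length, complex IV and complex V stood above complexes I and II. The median member level was 66.8 FPKM in complex I, 68.9 in complex II, 138 in complex III, 212 in complex IV and 179 in complex V. The highest was Atp5b, the catalytic beta subunit of ATP synthase, at a mean of 645 FPKM over all libraries, followed by its partner Atp5a1, the alpha subunit, at 387. Cox4i1, the main form of a regulatory subunit of cytochrome oxidase, led complex IV at 309 FPKM, with Cox6b1 at 274 and Cox8a at 250. Uqcrb led complex III at 180 and Sdhd complex II at 94.1. In complex I the range ran from Ndufa11 at 19.0 to Ndufb8 at 141, and the core subunits Ndufv1, Ndufv2, Ndufs1, Ndufs3, Ndufs7 and Ndufs8, most of which carry flavin or iron-sulphur clusters, lay between 43.9 (Ndufs1) and 64.6 (Ndufv1).

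**Figure D1:**
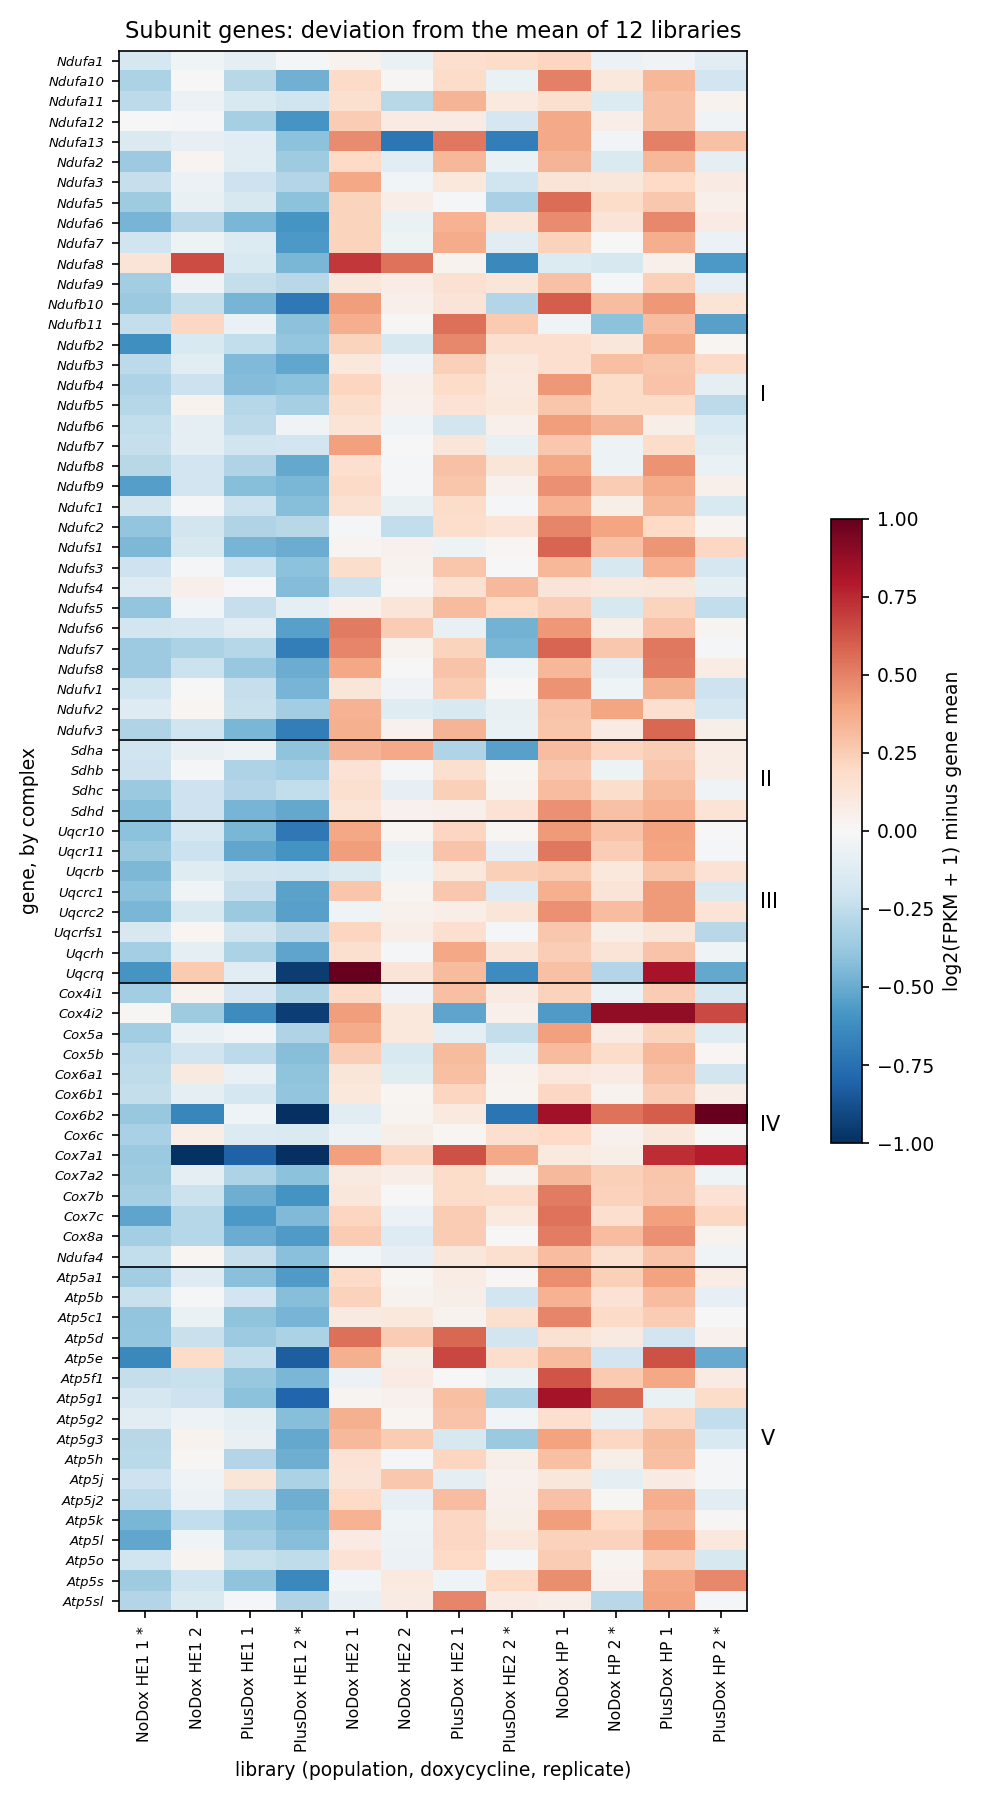
Each row is one of 77 tested subunit genes and each column a library, with colour giving log2(FPKM + 1) minus the gene's mean over the 12 libraries (limited to 1 in either direction) and an asterisk marking the 5 high-class libraries. The HE1 columns lean blue, least so in NoDox HE1 replicate 2 (median deviation of the subunit genes −0.069). The HP and HE2 columns lean red in part only. The median deviation was 0.014 in NoDox HE2 replicate 2 and 0.021 in PlusDox HE2 replicate 2, whose columns are mixed. Replicates also differ, with 0.296 and −0.014 in PlusDox HP. Single genes such as Ndufa8, Sdha, Cox7a1 and Cox6b2 depart from the rest of their complex.

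Group means ranked HE1 lowest for most members, while replicates of a group also differed. HE1 held the lowest group mean of 77 of the 78 genes, 68 of them in PlusDox HE1, and the exception was Sdha, whose lowest mean was in PlusDox HE2. HP held the highest group mean of 54 genes, 40 of them in NoDox HP, and HE2 that of the other 24. These counts are on FPKM as deposited, and the share of all tested genes with such an order was not computed. Genes at large also stood low in HE1. Their median log2 deviation from the mean over all libraries was −0.139 and −0.033 in NoDox HE1 and −0.016 and −0.266 in PlusDox HE1. That of the 82 genes was −0.289 and −0.069, then −0.236 and −0.426. As a share of the summed FPKM without Lars2, Mir6236 and LOC101056014, all 82 genes made up 1.68% and 1.87% in NoDox HE1 and 1.60% and 1.59% in PlusDox HE1. The share was 1.85% and 1.86% in NoDox HE2, 1.81% and 1.90% in PlusDox HE2, 2.11% and 2.14% in NoDox HP, and 2.01% and 1.96% in PlusDox HP. The HP libraries lay above all others, and both PlusDox HE1 libraries lay below all others. NoDox HE1 replicate 2 lay above both NoDox HE2 libraries and replicate 1 below them, so the shares of these groups overlap. In bulk RNA of sorted cells, fewer cells of a type and less RNA per cell cannot be told apart.

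**Figure D2:**
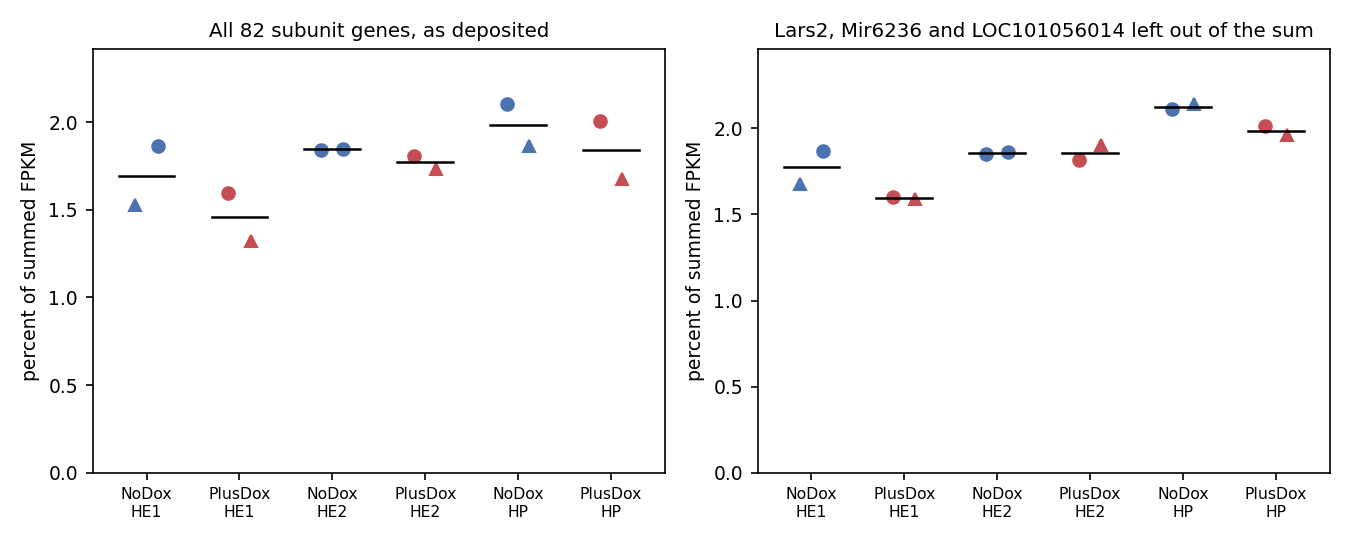
The summed FPKM of the 82 subunit genes is plotted as a percent of the library's summed FPKM, as deposited (left) and after leaving 3 features out of the sum (right), by group. Blue is NoDox and red PlusDox, circles are low-class and triangles high-class libraries, and bars are means of 2 libraries; on the right the HP libraries lie at 1.96% to 2.14% and the PlusDox HE1 libraries at 1.59% and 1.60%.

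From HE1 to HE2 most members had a higher mean, although few passed the test gene by gene in the fit used here. Without doxycycline their share of the summed FPKM without the 3 features overlapped. It was 1.68% and 1.87% in NoDox HE1 and 1.85% and 1.86% in NoDox HE2. Differences here are log2 differences of group means with their SE, and a gene is called at an adjusted p below 0.05 (limma over all 13316 genes). Without doxycycline, 1 of 78 members was called higher and 0 lower, while 5.67% of all tested genes were called higher and 4.45% lower. With doxycycline, 4 members were called higher and 0 lower, while 5.70% of all tested genes were called higher and 2.89% lower. The first count is below its background and the second near it. The second depended strongly on the fit: it was 21 (26.9% of members, against 15.4% of all tested genes called in either direction) with quantile normalization and 43 (55.1%, against 17.7%) with a term for library class, all higher. The median member difference was 0.29 without doxycycline, against 0.16 over all tested genes, and 0.45 with it, against 0.17. Of the members, 76 without and 75 with doxycycline had a positive difference (97.4% and 96.2%, against 65.6% and 67.3% of all tested genes). Both HE2 libraries lay above both HE1 libraries for 54 members (69.2%) without doxycycline, where 45.6% of all tested genes did so, and for 65 members (83.3%) with it, where 37.9% did. Both HE2 libraries lay below both HE1 libraries for 0 members in either condition, where 17.6% and 14.6% of all tested genes did. Other scalings moved the median of all genes by up to 0.186, so the members are best read relative to it: their median minus that of all genes was 0.13 without and 0.272 with doxycycline, and over the other settings with the same genes 0.052 to 0.214 and 0.23 to 0.363.

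From HE2 to HP the members stood higher relative to all genes without doxycycline, and close to them with it. Without doxycycline 1 member was called higher and 0 lower, where 5.31% of all tested genes were called higher and 10.6% lower. With doxycycline 2 were called higher and 0 lower, where 5.96% and 10.9% were. The median member difference was 0.11 against −0.06 over all genes without doxycycline, and 0.04 against −0.006 with it. The members' median minus that of all genes was thus 0.169 without doxycycline (0.077 to 0.266 over the other settings with the same genes) and 0.044 with it (−0.043 to 0.093). HP lay wholly above HE2 for 21 members and wholly below for 6 without doxycycline (26.9% and 7.69%, against 22.2% and 33.0% of all tested genes). With doxycycline these were 12 and 2 (15.4% and 2.56%, against 23.5% and 27.7%).

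Among the 78 members, 1 was called with doxycycline, Sdha in HE2. That is 1.28% there, against 6.06% of all tested genes called in either direction. In HE1, 0 of 78 were called, where 0.961% of all tested genes were called higher and 0.406% lower (2 members had an unadjusted p below 0.05, Ndufa8 and Ndufa12, both lower). In HE2, 1 was called lower and 0 higher, where 2.24% of all tested genes were called lower and 3.82% higher. In HP, 0 were called, where 0.601% were called higher and 0.233% lower (at an unadjusted p below 0.05, 1 was higher and 2 lower). No other tool was run. The median member difference in HE1 was −0.16, against −0.07 over all genes, and 68 of 78 members had a negative difference. Of the members 12.8% had a positive one, against 38.0% of all tested genes, so genes at large also leaned lower. Both PlusDox HE1 libraries lay below both NoDox HE1 libraries for 28 members (35.9%, against 22.0% of all tested genes) and above them for 0 (against 13.6%). In HE1 each class holds 1 PlusDox and 1 NoDox library, so a difference within a class has no replicate. The median member difference was −0.20 in the low class (all genes 0.00) and −0.16 in the high class (all genes −0.13). In HE2 the median was 0.04 against −0.05, with 11 members wholly higher and 9 wholly lower with doxycycline (background 22.3% and 28.0%), and in HP −0.09 against −0.003, with 1 wholly higher and 5 wholly lower (20.5% and 13.2%). With 1 library left out, the HE1 median was −0.268 to −0.062, that of HE2 was −0.047 to 0.133 and that of HP was −0.251 to 0.074. Its sign changed in HE2 without NoDox HE2 replicate 2 (−0.047) or PlusDox HE2 replicate 1 (−0.043), and in HP without NoDox HP replicate 1 (0.016) or PlusDox HP replicate 2 (0.074). For the differences between the doxycycline effects of 2 populations, 0 members were called in all 3 contrasts, where 0.0451%, 0.0150% and 0.0375% of all tested genes were. At an unadjusted p below 0.05 the effect in HE2 differed from that in HE1 for 1 member, Sdha. The comparisons share groups, NoDox HE2 and PlusDox HE2 above all, so they are not independent of each other.

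**Figure D3:**
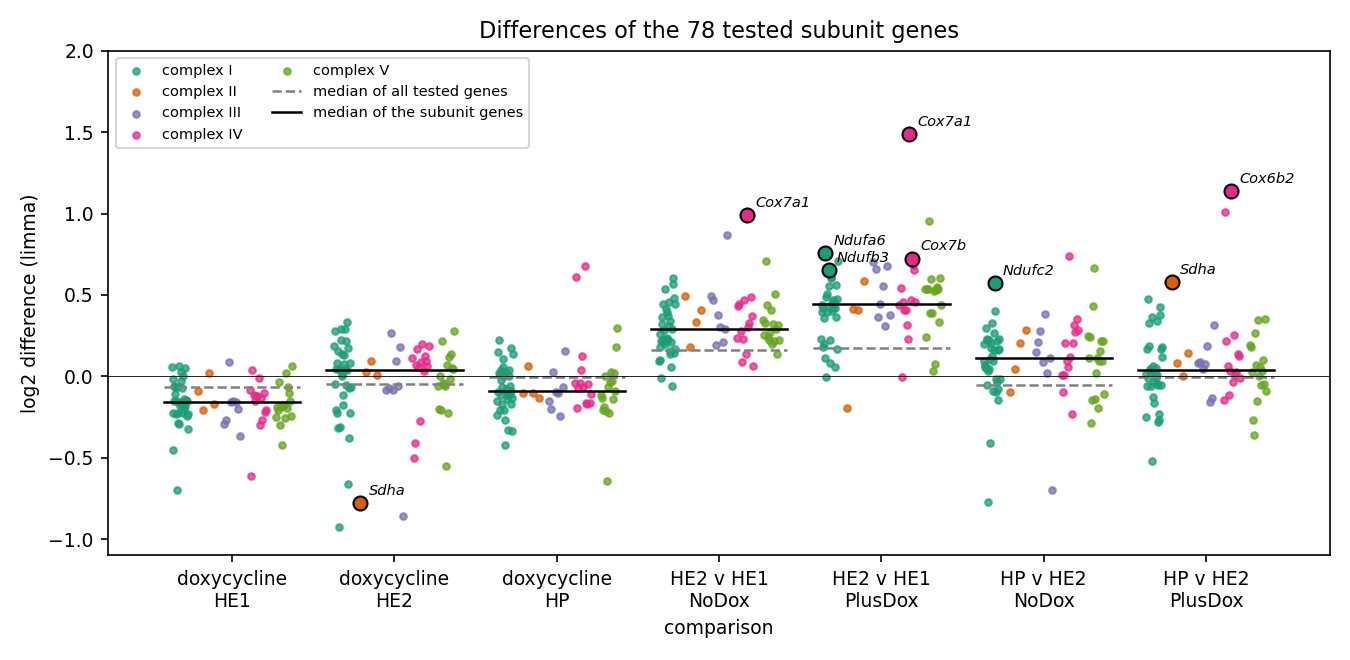
Each point is the log2 difference (limma) of one of the 78 tested subunit genes in a comparison, coloured by complex; solid bars are the members' medians, dashed bars the medians of all tested genes, and ringed, named points have an adjusted p below 0.05. The HE2 against HE1 columns lie mostly above 0, with medians of 0.29 and 0.45, and the doxycycline columns lie around or just below 0.

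Sdha of complex II was the only member called with doxycycline. It encodes the flavoprotein that oxidises succinate, Sdhb the iron-sulphur subunit, and Sdhc and Sdhd the membrane anchor. Sdha (mm10 chromosome 13, 74322255 to 74350240, protein coding) read 90.1 and 92.6 FPKM in NoDox HE2 and 57.5 and 48.5 in PlusDox HE2. The other groups read 61.8 and 67.4 in NoDox HE1, 68.6 and 53.5 in PlusDox HE1, 88.2 and 82.3 in NoDox HP and 84.5 and 74.7 in PlusDox HP. The HE2 libraries did not overlap between conditions, and those of HE1 and of HP differed less. In HE2 Sdha went from 91.3 ± 1.72 to 53.0 ± 6.33 FPKM (mean ± SD, n = 2 as for all group means) and fell by 0.78 ± 0.18 on the log2 scale (SE; adjusted p = 0.0267, limma). From PlusDox HE2 to PlusDox HP it rose by 0.58 ± 0.18 (adjusted p = 0.0442, limma), a comparison that rests on the same PlusDox HE2 libraries and lost its call in 11 of 20 alternatives (log2 0.46 to 0.70). Cell type markers differed in HE2 as well: the endothelial ones summed to 846 and 1318 FPKM without and 1657 and 1634 with it, and 3 of 10 were called higher. The haematopoietic markers summed to 353 and 247 against 372 and 238, with 4 of 10 called higher, the other 6 below 0 and a median log2 difference of −0.29. Their part in the Sdha result was not tested.

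The other complex II subunits did not follow Sdha in HE2. Sdhb read 71.6 and 63.9 FPKM without and 72.3 and 65.6 with doxycycline (log2 difference 0.025). Sdhc read 58.7 and 49.6 against 62.1 and 53.8 (0.096), and Sdhd 101 and 94.7 against 95.3 and 102 (0.007). The ratio of Sdha to Sdhb, which no scaling of libraries can change, was 0.795 and 0.739 in PlusDox HE2 and 1.05 to 1.45 in the other 10 libraries. The difference between the Sdha effects in HE2 and HE1 was −0.69 (unadjusted p = 0.0187, adjusted p = 0.575, limma), and between HP and HE2 0.68 (adjusted p = 0.623), so the response is not shown to differ between populations. The Sdha fall in HE2 lost its call without NoDox HE2 replicate 1, NoDox HE2 replicate 2 or PlusDox HE2 replicate 2 (log2 −0.80, −0.76 and −0.66) and in the 7 low-class libraries alone (−0.66). Its sign held in all 20 alternatives, with adjusted p from 0.00311 to 0.42.

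**Figure D4:**
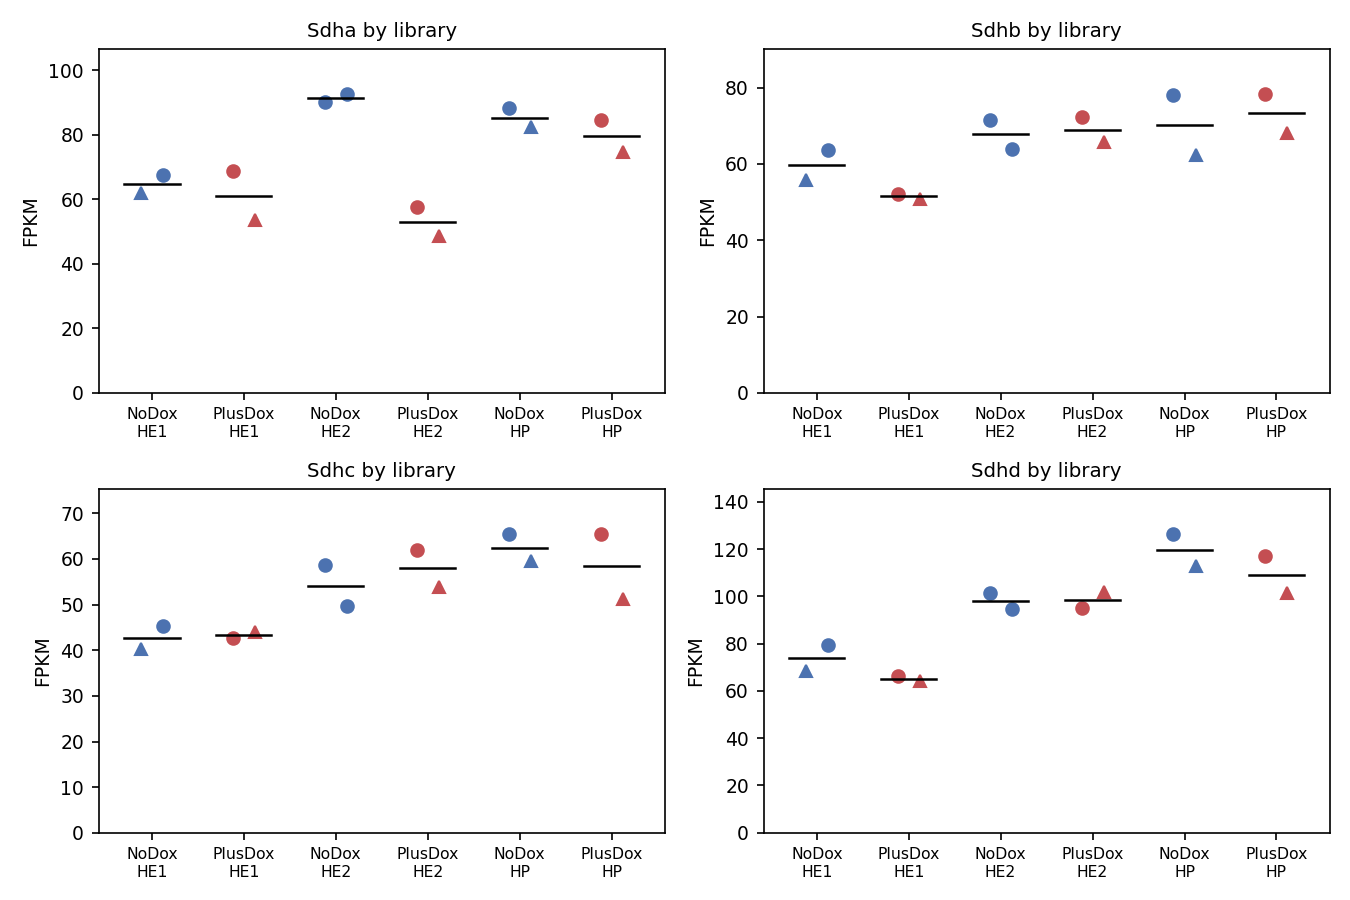
FPKM of the 4 complex II subunit genes by library and group (blue NoDox, red PlusDox, circles low-class and triangles high-class libraries, bars means of 2 libraries). Sdha stands at 48.5 and 57.5 FPKM in PlusDox HE2 against 90.1 and 92.6 in NoDox HE2, while Sdhb, Sdhc and Sdhd overlap between these groups.

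The promoter of Sdha holds 3 matches to the NRF1 letters (GCGCA, any base, then GCGC), shown here because Sdha was the only member called with doxycycline. They come from RefSeq on GRCm38.p6 (minus strand, 5′ to 3′), with the match in capitals, and start 98, 55 and 10 bases before the annotated start.
Sdha at chr13:74350319-74350348: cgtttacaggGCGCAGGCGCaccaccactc
Sdha at chr13:74350276-74350305: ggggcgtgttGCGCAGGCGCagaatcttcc
Sdha at chr13:74350231-74350260: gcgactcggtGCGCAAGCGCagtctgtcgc

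In complex I, Ndufa6, Ndufb3 and Ndufc2 were the called members. All 3 are accessory subunits, which surround the catalytic core and help to assemble and stabilise it. Ndufa6 (chromosome 15, 82350139 to 82354291, protein coding) read 73.7 and 67.2 FPKM in PlusDox HE1 and 130 and 110 in PlusDox HE2, a rise of 0.76 ± 0.20 (SE; adjusted p = 0.0415, limma). Without doxycycline it read 73.5 and 83.6 in HE1 and 119 and 96.7 in HE2, and in HP it read 107 to 142. Its HE1 libraries thus lay below all others with and without doxycycline. Ndufb3 (chromosome 1, 58586397 to 58595964, protein coding) read 27.4 and 25.9 in PlusDox HE1 and 44.5 and 40.5 in PlusDox HE2 (rise of 0.65 ± 0.16, adjusted p = 0.0263, limma), and 31.1, 34.7, 40.5 and 36.6 in the same populations without doxycycline. Ndufc2 (chromosome 7, 97400003 to 97407800, protein coding) rose from HE2 to HP without doxycycline, from 64.6 and 55.1 to 92.2 and 86.6 FPKM (0.57 ± 0.16, adjusted p = 0.0336, limma). With doxycycline the values were 74.1 and 72.4 for HE2, and 75.4 and 66.7 for HP, which overlap. The Ndufa6 call was lost in 10 of 20 alternatives, that of Ndufb3 in 6 and that of Ndufc2 in 5; leaving out either library of either group compared ended each of the 3 calls.

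Ndufa8, an accessory subunit of the intermembrane space side, followed its own course and passed the test in no comparison. It read 85.2 and 123 FPKM in NoDox HE1, 128 and 114 in NoDox HE2 and 70.6 and 69.6 in NoDox HP. With doxycycline it read 70.0 and 56.5 in HE1, 79.6 and 49.5 in HE2 and 80.7 and 51.9 in HP. The 4 NoDox HE libraries lay above the other 8. Its log2 difference with doxycycline was −0.93 in HE2 (adjusted p = 0.0665, limma) and −0.70 in HE1 (adjusted p = 0.382), and −0.77 from HE2 to HP without doxycycline (adjusted p = 0.0793). In HE2 it was called lower under quantile normalization (−0.82), median scaling (−0.89), sum scaling (−0.91), a term for library class (−0.71) and a replicate block (−0.93). These settings called 9.42% to 17.2% of all tested genes in HE2. Ndufa8 was not called with a pseudocount of 0.1 or with no filter. Leaving out 1 library gave log2 differences from −1.27 to −0.59. Relative to the mean of the other complex I genes it stood at 1.53 and 1.91 in NoDox HE1 and 1.59 and 1.70 in NoDox HE2. The same ratio was 0.734 to 1.23 in the other 8 libraries.

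The promoters of Ndufa6 and Ndufa8 each hold 1 match to the same NRF1 letters, on the opposite strand. The Ndufa6 match starts 23 bases after the annotated start, and that of Ndufa8 30 bases before it; both are shown on the gene's own strand, which is minus, so that the capitals are the reverse complement.
Ndufa6 at chr15:82354249-82354278: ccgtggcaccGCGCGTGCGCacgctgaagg
Ndufa8 at chr2:36049349-36049378: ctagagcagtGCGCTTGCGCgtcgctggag

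None of the 6 complex I core subunits named with the levels was called in any comparison. From HE1 to HE2 with doxycycline their differences ran from 0.17 (Ndufv2) to 0.56 (Ndufs8, adjusted p = 0.146, limma), and Ndufs1, the largest core subunit, read 30.7 and 29.9 FPKM in HE1 against 41.2 and 43.3 in HE2 (0.47, adjusted p = 0.128). Both PlusDox HE2 libraries lay above both PlusDox HE1 libraries for each of the 6 except Ndufs7. With doxycycline in HE2, Ndufs7 stood at −0.38 (adjusted p = 0.444, limma). Ndufs6, an accessory subunit that binds zinc, read 71.1 and 58.9 FPKM in NoDox HE2 and 46.8 and 35.2 in PlusDox HE2 (−0.66, adjusted p = 0.0986, limma). Its libraries did not overlap, and it was called lower under 4 of 20 alternatives. Among them was median scaling (−0.61), which called 12.6% of all tested genes. Over the 20 its log2 difference ran from −0.86 to −0.46.

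In complex III no member was called in any comparison. The core proteins Uqcrc1 and Uqcrc2 and the Rieske iron-sulphur protein Uqcrfs1 differed between PlusDox HE2 and PlusDox HE1 by 0.45, 0.55 and 0.31 (adjusted p 0.272, 0.0813 and 0.324, limma). Uqcrc2 read 67.3 and 59.6 FPKM in PlusDox HE1, 91.7 and 95.2 in PlusDox HE2 and 118 and 96.2 in PlusDox HP. In NoDox cells it read 63.4 and 78.6, then 84.8 and 90.2, then 120 and 108, so that its 4 HE1 libraries lay below the other 8. Uqcrq, a small accessory subunit, was the lowest and least steady of the complex: it read 44.8 and 19.8 FPKM in the replicates of NoDox HE2 and 32.6 and 12.3 in those of PlusDox HP.

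Complex IV held the members with the largest differences, all isoforms at low level. Cox7a1 is the form of subunit 7a known from heart and skeletal muscle, and Cox7a2 the form found in most tissues. Cox7a1 (chromosome 7, 30184171 to 30186030, protein coding) read 2.64 and 1.37 FPKM in NoDox HE1 and 5.27 and 4.44 in NoDox HE2, a rise of 0.99 ± 0.23 (SE; adjusted p = 0.02, limma). With doxycycline it read 1.68 and 1.12 in HE1 and 6.31 and 5.12 in HE2, a rise of 1.49 ± 0.23 (adjusted p = 0.00235, limma). In HP it read 4.04 and 3.92 without and 6.85 and 7.10 with doxycycline (log2 difference 0.68, adjusted p = 0.286, limma). All 4 HE1 libraries lay below the other 8. The 2 rises on the log2(FPKM + 1) scale understate the change of so low a gene. The rise without doxycycline was lost without NoDox HE1 replicate 2 (0.68) or NoDox HE2 replicate 1 (0.89), with no filter on low values and in the low-class libraries alone. That with doxycycline kept its call in 19 of 20 alternatives and lost it in the low-class libraries alone (1.45).

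Cox7a1 stayed the minor form throughout. Cox7a2 read 60.9 to 102 FPKM over the 12 libraries, and Cox7a1 was 1.77% to 4.00% of the sum of both in HE1, 4.96% to 6.39% in HE2 and 3.81% to 8.27% in HP. The 9 cardiac and smooth muscle markers, of which 6 were tested, summed to 117 to 315 FPKM in HE1, 48.6 to 95.6 in HE2 and 28.4 to 82.7 in HP. Acta2 and Tagln made up most of these sums, with 67.5 and 41.6 of the 117 FPKM in NoDox HE1 replicate 1. Single markers differed. Tnnt2 read 1.96 and 1.75 in NoDox HE1 and 2.28 and 2.65 in NoDox HE2, while Nkx2-5 read 1.56 and 1.43, then 0.09 and 0.28. Their relation to Cox7a1 was not tested. The 200 bases from 250 to 51 before the start of Cox7a1 are shown as the upstream sequence of the member with the largest difference, from RefSeq on GRCm38.p6 (plus strand, 5′ to 3′); its promoter window holds no match to any of the 4 motifs searched.
Cox7a1 at chr7:30183921-30184120: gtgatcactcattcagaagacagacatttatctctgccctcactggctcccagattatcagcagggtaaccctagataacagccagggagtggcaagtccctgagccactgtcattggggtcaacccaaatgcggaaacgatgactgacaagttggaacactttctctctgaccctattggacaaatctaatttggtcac

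Cox6b2, the testis form of subunit 6b, was highest in HP. It read 17.0 and 13.6 FPKM in NoDox HP and 14.3 and 19.5 in PlusDox HP, and 3.29 to 9.71 in the 8 other libraries, so that the HP libraries lay above all others. From PlusDox HE2 (9.71 and 5.04) to PlusDox HP Cox6b2 (chromosome 7, 4751792 to 4753094, protein coding) rose by 1.14 ± 0.36 (SE; adjusted p = 0.0485, limma). Without doxycycline its difference from HE2 to HP was 0.74 (adjusted p = 0.207). The call was lost in 12 of 20 alternatives, among them a pseudocount of 0.1 (1.24) and the low-class libraries alone (0.51), and without PlusDox HE2 replicate 2 the difference was 0.72. Cox6b1, the common form, read 206 to 323 FPKM, and Cox6b2 made up 1.57% to 6.43% of the pair. Cox4i2, the form of subunit 4 known from lung and from low oxygen, read 0.08 to 2.85 FPKM, with 0.41 and 2.85 in the replicates of NoDox HP, and passed the test in no comparison.

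The common subunits of complex IV were steadier. Cox7b (chromosome X, 106015700 to 106022450, protein coding), a small nuclear subunit, read 88.3 and 82.1 FPKM in PlusDox HE1 and 141 and 141 in PlusDox HE2, a rise of 0.72 ± 0.17 (SE; adjusted p = 0.0218, limma). In NoDox cells it read 98.7 and 107 in HE1, 135 and 124 in HE2 and 178 and 146 in HP, and its HE1 libraries lay below all others. Its call was lost on leaving out any of the 4 libraries compared, with log2 differences of 0.67 to 0.77. Cox4i1 and Cox5b differed with doxycycline in HE2 by 0.11 and 0.07. Cox5a read 175 and 146 FPKM in NoDox HE2 and 126 and 114 in PlusDox HE2 (−0.41, adjusted p = 0.281, limma), without overlap.

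**Figure D5:**
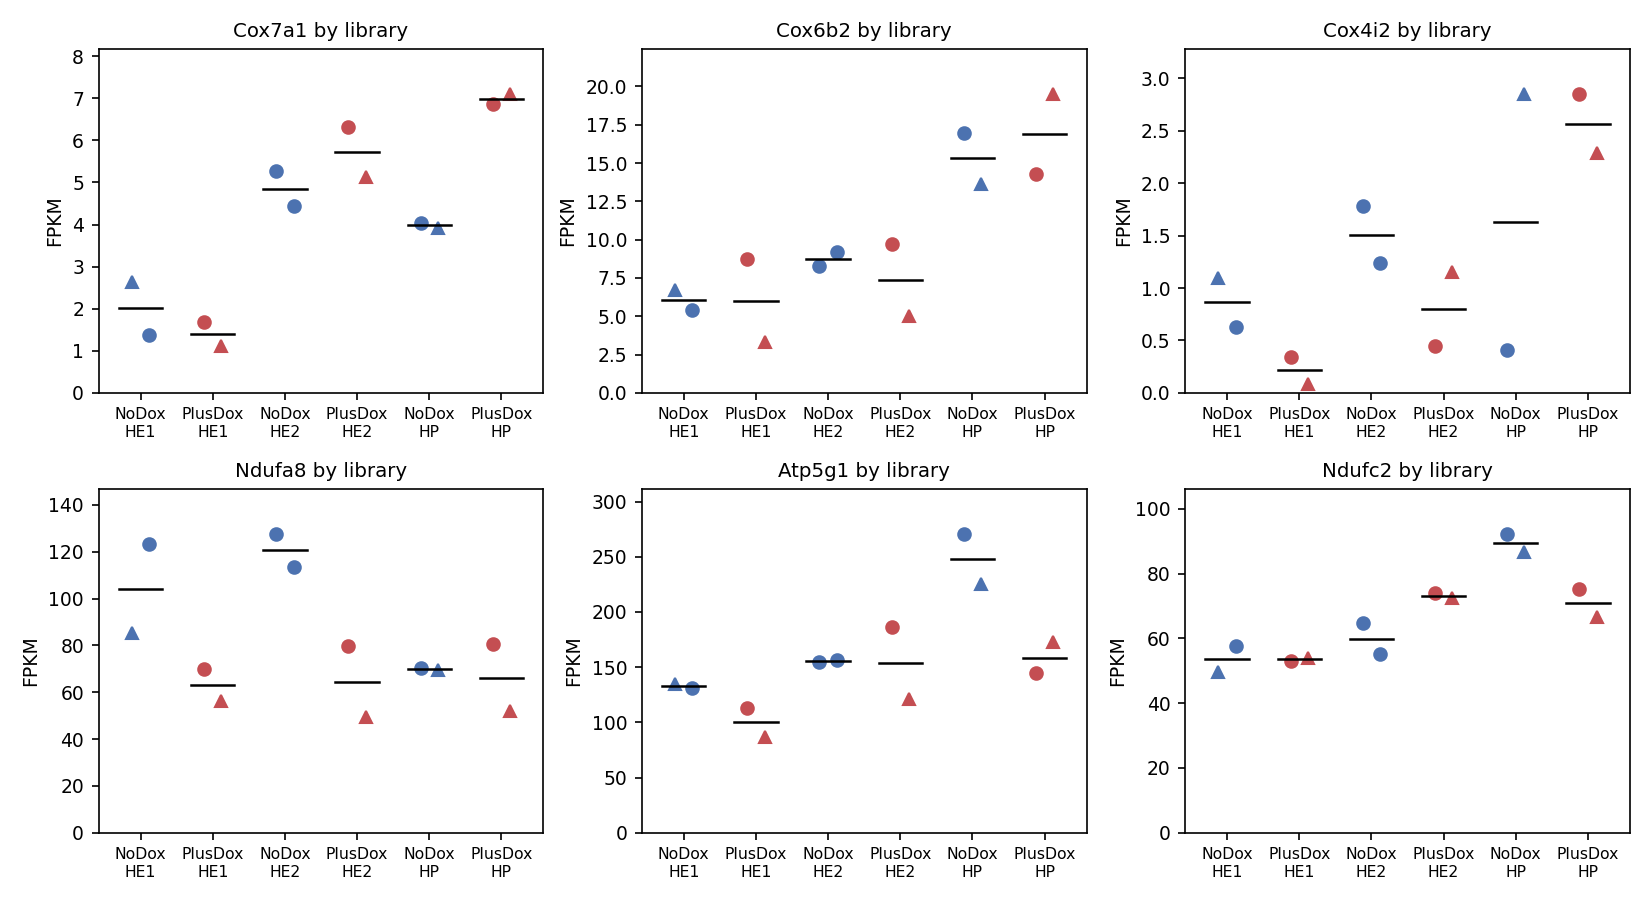
FPKM of 6 subunit genes by library and group (blue NoDox, red PlusDox, circles low-class and triangles high-class libraries, bars means of 2 libraries; each panel has its own axis from 0). Cox7a1 lies at 1.12 to 2.64 in HE1 and at 3.92 to 7.10 elsewhere, Cox6b2 is highest in HP, and Ndufa8 is highest in the 4 NoDox HE libraries.

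In complex V no member was called in any comparison. The catalytic subunits Atp5a1 and Atp5b and the rotor stalk subunit Atp5c1 differed from HE1 to HE2 with doxycycline by 0.53, 0.24 and 0.54 (adjusted p 0.123, 0.525 and 0.108, limma). Atp5a1 read 284 and 256 FPKM in PlusDox HE1 and 400 and 381 in PlusDox HE2, without overlap, and reached 523 in NoDox HP replicate 1. The c subunit, the ring through which protons pass, is encoded by Atp5g1, Atp5g2 and Atp5g3, which give the same mature protein. Atp5g1 (chromosome 11, 96072793 to 96075694, protein coding) read 271 and 225 FPKM in NoDox HP and 86.8 to 187 in the 10 other libraries. The 2 NoDox HP libraries lay above all others, yet the difference to NoDox HE2 was not called (0.67, adjusted p = 0.0702, limma), nor was that between PlusDox and NoDox HP (−0.64, adjusted p = 0.307). Of the 3 genes' summed FPKM, Atp5g1 made up 34.9% and 34.1% in NoDox HP and 22.7% to 32.6% elsewhere. Atp5g3 read 289 and 275 in NoDox HE2 and 207 and 178 in PlusDox HE2 (−0.55, adjusted p = 0.174, limma), without overlap. Many subunit genes have processed pseudogenes in the mouse genome, and how shared reads were assigned is not given in the sources used here.

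Promoter sequence was read for the 68 members that have a window of 250 bases before to 50 after the RefSeq start. The NRF1 letters, GCGCA, any base and GCGC, occurred in 17 of them (25.0%), on either strand, against 5.19% of 27025 genes with such a window. The YY1 letters, AAGATGGC followed by GGC, occurred in 5 (7.4%, against 0.75%), the ETS letters CCGGAAGT in 5 (7.4%, against 4.31%) and the RUNX letters TGTGGT in 7 (10.3%, against 18.92%). Of the 7 members called in any comparison, Sdha and Ndufa6 hold the NRF1 letters and Ndufc2 the RUNX letters. The letters were chosen after the sequences were seen, so these shares are a description and not a test of enrichment. A match describes the sequence and does not show a bound site.

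Assembly factors build the complexes without staying in them. Of 44 assembly factors tested, 5 were called higher and 0 lower from HE1 to HE2 without doxycycline (11.4% called, against 5.67% of all tested genes higher and 4.45% lower). Their median difference was 0.40, against 0.16 over all tested genes, and 93.2% were positive, against 65.6%. Cox17, which carries copper to cytochrome oxidase, read 44.1 and 53.0 FPKM in NoDox HE1 and 101 and 80.5 in NoDox HE2 (0.89 ± 0.19, adjusted p = 0.0149, limma). The others were Ndufaf2 and Ndufaf7 for complex I, Bcs1l for complex III and Cox20 for complex IV (0.67 to 0.86). With doxycycline 1 was called higher, Ndufaf1 (0.79), and 0 lower (background 5.70% and 2.89%), with a median of 0.40 against 0.17. From HE2 to HP, Ndufaf4 without and Bcs1l with doxycycline were called higher (0.78 and 0.74). In the 3 doxycycline comparisons 0 of 44 were called, where 1.37%, 6.06% and 0.834% of all tested genes were in HE1, HE2 and HP. Of 12 other subunits and carriers tested, Etfb, Etfdh and Cox7a2l were called higher in HE2 than in HE1 in 1 of the 2 conditions, and Etfb also from HE2 to HP with doxycycline (0.83). The share called from HE1 to HE2 was 8.33% without and 16.7% with doxycycline, against 10.1% and 8.59% of all tested genes. From HE2 to HP with doxycycline it was 8.33%, against 16.9%. Etfb and Etfdh, with Etfa, bring electrons from fatty acid oxidation to ubiquinone.

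In HE2, 2 of 18 other tested genes of the tricarboxylic acid cycle and pyruvate dehydrogenase were called lower with doxycycline, as Sdha was, and 0 higher. That is 11.1% called, where 2.24% of all tested genes were called lower and 3.82% higher. The median was −0.13 against −0.05 over all tested genes. Whether these calls held in the alternatives was not followed. Mdh2, mitochondrial malate dehydrogenase, read 191 and 172 FPKM in NoDox HE2 and 95.3 and 63.3 in PlusDox HE2 (−1.21 ± 0.24, adjusted p = 0.0122, limma). Idh3a, a subunit of the NAD-dependent isocitrate dehydrogenase, read 39.5 and 36.2 against 24.6 and 18.1 (−0.81 ± 0.18, adjusted p = 0.0239, limma). Etfa was also called lower there (−0.90 ± 0.23, adjusted p = 0.0438, limma). It was 1 of 12 other subunits and carriers tested (8.33% called, against 6.06% of all tested genes). Mdh2 and Idh3a were called higher from PlusDox HE2 to PlusDox HP (0.79 and 0.86), which rests on the same PlusDox HE2 libraries. That is 11.1% of the 18 genes called in this step, against 16.9% of all tested genes.

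Of the 13 subunits encoded in mitochondrial DNA, 0 were called in the 7 comparisons, where 0.834% to 16.9% of all tested genes were. Their medians were −0.04 and −0.26 from HE1 to HE2, without and with doxycycline, against the nuclear 0.29 and 0.45. Over all tested genes they were 0.16 and 0.17. From HE2 to HP the medians of the 13 were 0.53 and 0.45, against −0.06 and −0.006 over all tested genes. Their share of the summed FPKM without the 3 features ran from 1.55% to 3.98%, and replicates differed widely, with 1.55% and 3.6% in PlusDox HE2. With doxycycline their median difference was 0.17 in HE1, 0.01 in HE2 and −0.25 in HP. That of all tested genes was −0.07, −0.05 and −0.003.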

How the data were processed

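The 12 libraries were made with a stranded total RNA kit and sequenced paired-end in 1 pool, per the labels' protocols. Per the submitters' processing notes, the tools were Trimmomatic 0.32, HISAT2 2.1.0 and StringTie 1.3.3, and the genome build was mm10. The annotation, strand setting and sort gates were not found in those sources. The deposited files carry no header. Their values, as deposited by the authors, were taken to be StringTie's FPKM because StringTie is listed and because their sums differ between libraries. No read counts were used, so the absolute depth is unknown. Relative depth came from the smallest steps of low FPKM values, where 45 of 66 library pairs gave the same ratio within 0.1 on the log2 scale. The 2 to 4 repeated names per file, none a member, were added.

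Genes with at least 1 FPKM in at least 2 libraries (13316) were tested on log2(FPKM + 1) with limma 3.58.1 in R 4.3.3: 6 group means over all 12 libraries, an intensity trend, 6 residual and 5.83 prior degrees of freedom, two-sided p-values adjusted by the Benjamini-Hochberg method over all genes of a comparison. P-values rest on the spread between 2 replicates, pooled over groups. The fit was tested on simulated data. Python 3.11.15 with numpy 2.4.6, pandas 2.3.3 and matplotlib 3.10.9 did the rest.

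The members, gene lists and motifs were chosen with earlier results of these data known, and the motif letters after the sequences were seen. The naming rule took all called members and allowed a set of core subunits and isoforms, the highest and lowest 3 of each complex, and up to 5 called genes per related list and comparison. Ndufa8, Ndufs6 and Ndufa12 were chosen for the text with their values in view. The values of 1 member are not reported singly here. Coordinates and sequences came from RefSeq on GRCm38.p6, the assembly of mm10, in which all 82 members were found, 3 of them by synonym, and 68 had a promoter window. Alternatives were a pseudocount of 0.1, no filter, 3 other scalings, a term for library class, the 7 low-class libraries alone, a replicate block and leaving out each library.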

Additional observations from a re-analysis of the deposited data

How the results depend on the processing

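The 20 member results followed were the called ones and some of the other larger differences, for which a kept sign is likely. None of them changed sign under the 20 alternatives run for each, and the other differences named in the text were not followed. In the doxycycline comparisons of HE1 and HP and in the 3 differences between effects, 0 members were called under all alternatives. The other counts of called members changed, and the cause was not tested, apart from the fewer samples in the settings that leave libraries out. Under the 3 scalings and the class term, 2.56% to 5.13% of members were called for doxycycline in HE2, against 9.42% to 13.7% of all tested genes. From HE1 to HE2 these shares were 1.28% to 2.56% against 12.4% to 15.9% without doxycycline. With it they were 11.5% to 55.1% against 11.6% to 17.7%. From HE2 to HP they were 6.41% to 10.3% against 18.0% to 21.6% without doxycycline, and 5.13% to 6.41% against 22.0% to 25.5% with it. For PlusDox against NoDox in HE2 (1 member) the count was 3 with quantile normalization, 4 with median scaling, 4 with sum scaling apart from Lars2, Mir6236 and LOC101056014, 2 with library class as a term, 0 in the low-class libraries alone, and 0 to 2 on leaving out 1 library. For HE2 against HE1 without doxycycline (1) it was 0 with no filter, 2 with median scaling, 2 with the class term, 0 in the low class and 0 to 2 on leaving out 1 library. For HP against HE2 without doxycycline (1) it was 5, 8 and 7 with the quantile, median and sum scalings, 8 with the class term, 0 in the low class and 0 to 2 on leaving out 1 library. For HE2 against HE1 with doxycycline (4) it was 21, 10 and 9 with these scalings, 43 with the class term, 0 in the low class and 1 to 4 on leaving out 1 library; under median scaling 1 of the 10, Sdha, was called lower. For HP against HE2 with doxycycline (2) it was 1 with a pseudocount of 0.1, 1 with no filter, 5, 5 and 5 with these scalings, 4 with the class term, 0 in the low class and 0 to 2 on leaving out 1 library.

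Whether replicate numbers pair the samples was not settled: the labels tie them to nothing shared, and the correlation of same-numbered deviations was above 0.1 in 12 of 15 pairs of groups but ran from −0.1 to 0.526, so the block was kept as an alternative. With a replicate block the counts were 3 for doxycycline in HE2, 7 and 24 for HE2 against HE1 without and with doxycycline, 3 and 2 for HP against HE2, and 0 in the other comparisons. Of the members, 3.85%, 8.97%, 30.8%, 3.85% and 2.56% were thus called, in that order. Of all tested genes, 17.2%, 23.5%, 18.2%, 23.1% and 25.4% were, and 0.0375% to 3.45% in the other comparisons. The low-class libraries alone leave 1 residual degree of freedom, so a lost call there says little. The absolute depth is unknown, and genes near 1 FPKM, such as Cox4i2, rest on few fragments.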

Other observations

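Of 21 genes of glucose use and lactate transport, 16 had a positive difference from HE1 to HE2 without doxycycline (76.2%, against 65.6% of all tested genes). Their median was 0.41 against 0.16 over all tested genes, and 2 were called higher (9.52% called, background 5.67% higher and 4.45% lower). With doxycycline the median of that step was 0.24 against 0.17, with 1 called higher and 1 lower (background 5.70% and 2.89%). Hk2, a hexokinase that binds mitochondria, read 10.2 and 6.42 FPKM in NoDox HE1, 22.6 and 24.3 in NoDox HE2 and 10.1 and 6.39 in PlusDox HE2. It was called higher from HE1 to HE2 without doxycycline (1.42 ± 0.26, SE; adjusted p = 0.00691, limma) and lower with doxycycline in HE2 (−1.43 ± 0.26, adjusted p = 0.00922, limma); both rest on the same NoDox HE2 libraries. Aldoc, an aldolase, was called higher with doxycycline in HE2 (1.09 ± 0.24, adjusted p = 0.0222, limma) at 2.1 against 0.434 FPKM. Ldhb, a lactate dehydrogenase subunit, rose with doxycycline in HP from 4.59 ± 0.132 to 12.1 ± 0.403 FPKM (1.23 ± 0.19, adjusted p = 0.0119, limma). Slc16a3, a lactate exporter, was called higher in HP than in HE2 without and with doxycycline (0.90 and 1.06). The counts of this list called higher and lower with doxycycline were 0 and 0 in HE1, 1 and 1 in HE2, and 1 and 0 in HP. The shares of all tested genes were 0.961% and 0.406%, 3.82% and 2.24%, and 0.601% and 0.233%.

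Among 13 tested regulators of mitochondrial biogenesis, Myc, a transcription factor of growth and ribosome genes, read 29.9 and 23.5 FPKM in NoDox HE2 and 11.3 and 9.53 in PlusDox HE2 (−1.27 ± 0.22, adjusted p = 0.00636, limma). It read 16.8 and 19.4 in NoDox HE1 and 23.1 and 22.7 in PlusDox HE1, and was called lower in HE2 than in HE1 with doxycycline (−1.07 ± 0.22, adjusted p = 0.0115, limma). Tfb1m, a mitochondrial ribosomal RNA methyltransferase, was called higher in HE2 than in HE1 without doxycycline (0.89 ± 0.19, adjusted p = 0.0146, limma). No other gene of this list was called from HE1 to HE2 or with doxycycline. The share called was 7.69% for doxycycline in HE2, against 6.06% of all tested genes. From HE1 to HE2 it was 7.69% without and with doxycycline, against 10.1% and 8.59%.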
